A study of Mus musculus with 16 samples.

Results

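The 9 genes described here encode repressors of neuronal identity and their partners: *Rest*, its corepressors *Rcor1* and *Rcor2*, the splicing repressors *Ptbp1*, *Ptbp2* and *Ptbp3*, and the small phosphatases *Ctdsp1*, *Ctdsp2* and *Ctdspl*. They were chosen by name, as members of one regulatory circuit, from 48397 genes in the count tables, with earlier results of these data known. All 9 passed a filter on low counts that left 17038 genes for testing. The study sequenced 16 libraries of primary mouse hippocampal neurons, 4 per group, to ask how astrocyte-derived human apoE isoforms affect neurons. The cultures came from pups of wild type CD1 mice at postnatal days 0 to 2, received AraC on day in vitro (DIV) 3 to stop the growth of non-neuronal cells, and were harvested at 17 DIV. At 10 and 13 DIV every group received 10-fold concentrated astrocyte-conditioned medium diluted 1:10. The apoE2, apoE3 and apoE4 groups received medium of immortalized astrocytes homozygous for the ε2, ε3 or ε4 human *APOE* allele, and the control neurons received medium of immortalized *Apoe*-/- astrocytes. The isoforms therefore also differ by the astrocyte line that made the medium, and the neurons' cultures kept native cells other than neurons. A library held 14087723 to 34248172 reads on genes. Apart from the others stood apoE2 replicate 4 and apoE4 replicate 2, with 38.4 and 38.6% of reads on no single gene against 51.4 to 73.7%, and with 0.690 and 0.359% of counts on *Lars2*, a mitochondrial tRNA synthetase gene, against 2.83 to 15.02%. Levels are given as CPM, counts relative to the library size, after TMM scaling, a method that makes libraries of different composition comparable.

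REST is a zinc finger protein that binds neuronal genes and silences them through corepressors such as RCOR1 (CoREST), and it is abundant in progenitors and in non-neuronal cells and low in neurons. CTDSP phosphatases, which act on the tail of RNA polymerase II and on REST itself, work with REST in non-neuronal cells. PTBP1 represses neuronal exons, including one in *Ptbp2*, so that differentiating neurons switch from PTBP1 to PTBP2. The microRNAs miR-124, miR-9 and miR-26 act on this circuit, and the miR-26 genes lie within the 3 CTDSP genes.

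The microRNA sequences below are shown because those of miR-26 lie within the 3 phosphatase genes and their seeds were searched for in the members' 3′UTRs. The mature forms are those of RefSeq on GRCm38.p6, and the capitals mark the seed, bases 2 to 8, which is the same in miR-26a and miR-26b. The first is encoded on the plus strand both in *Ctdspl* (chr9:119031811-119031832) and in *Ctdsp2* (chr10:126995543-126995564), the second in *Ctdsp1* (chr1:74394324-74394344), and the third, shown for its known link to REST, in *Mir9-3* (chr7:79505279-79505301).
miR-26a-5p: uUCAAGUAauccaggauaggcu
miR-26b-5p: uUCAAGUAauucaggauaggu
miR-9-5p: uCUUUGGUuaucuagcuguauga

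The 3′UTRs of GENCODE M21 were searched on the transcribed strand for TACTTGA, the complement of the miR-26 seed, and ACCAAAG, that of the miR-9 seed. A match is a stretch of letters and not a measured site. The miR-26 letters occurred in the 3′UTRs of 5 members (*Rest*, *Rcor1*, *Ptbp2*, *Ptbp3* and *Ctdsp2*) and in 11.2% of those of all 13961 tested genes that have one. The miR-9 letters occurred in 5 members (*Rest*, *Ptbp1*, *Ptbp2*, *Ptbp3* and *Ctdsp2*) and in 14.4% of all. Among genes with a 3′UTR of similar length, the miR-26 letters occurred in 23.5, 26.0, 10.4, 32.1 and 24% for these members in the order named, and the miR-9 letters in 28.6, 13.9, 15.1, 36.5 and 28.8%. Below are the windows of *Rest* (plus strand, chr5:77283321-77283348 and chr5:77286164-77286191) and of *Ctdsp2* (plus strand, chr10:126997554-126997581), with the match in capitals. *Ctdsp2* thus holds, in its own 3′UTR, the letters that pair with the seed of the microRNA encoded within it. The miR-9 windows of *Ptbp2* (minus strand, chr3:119719331-119719358) and *Ptbp3* (minus strand, chr4:59473165-59473192) are shown because their last 18 of 28 bases are identical.
*Rest*, miR-26: ggcttagtaaatTACTTGAagaatttgc
*Rest*, miR-9: tttctgaggcaaACCAAAGgtatatttc
*Ctdsp2*, miR-26: aagtgttgctctTACTTGAtttgccaaa
*Ptbp2*, miR-9: caaccaggtgggACCAAAGtttatgtgc
*Ptbp3*, miR-9: aaacaaaacaggACCAAAGtttatgtgc

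Compared per kb of exon, *Ptbp2* had the highest level of the 9 in the control neurons, at 16.2 ± 2.72 CPM per kb (SD, n = 4), and *Rest* the lowest, at 1.33 ± 0.70. Between them came *Ctdsp2* at 9.37, *Rcor2* at 5.14, *Ptbp3* at 4.51, *Rcor1* at 4.10, *Ptbp1* at 3.80, *Ctdspl* at 2.13 and *Ctdsp1* at 1.43 CPM per kb. The libraries of neighbours overlapped from *Rcor2* down to *Ptbp1* and again from *Ctdspl* down to *Rest*, so that the order within these stretches is not resolved, while *Ptbp2* and *Ctdsp2* each stood clear of the gene below. With apoE4 the mean of *Ctdsp2* (15.3 ± 4.07) lay above that of *Ptbp2* (13.3 ± 1.72 CPM per kb), with overlapping libraries. The coordinates of the genes, on GRCm38, are chromosome 5 from 77265491 to 77286432 for *Rest*, chromosome 10 from 79854427 to 79864771 for *Ptbp1* and chromosome 3 from 119718742 to 119784466 for *Ptbp2*. Of the exon bases of *Ptbp1*, 20.7% lie over genes on the other strand (*Plppr3* among them), and without a stated strand setting their reads cannot be told apart. Of those of *Ctdsp2*, 2.21% lie over *Mir26a-2* and *Mir546* on the same strand.

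**Figure D1:**
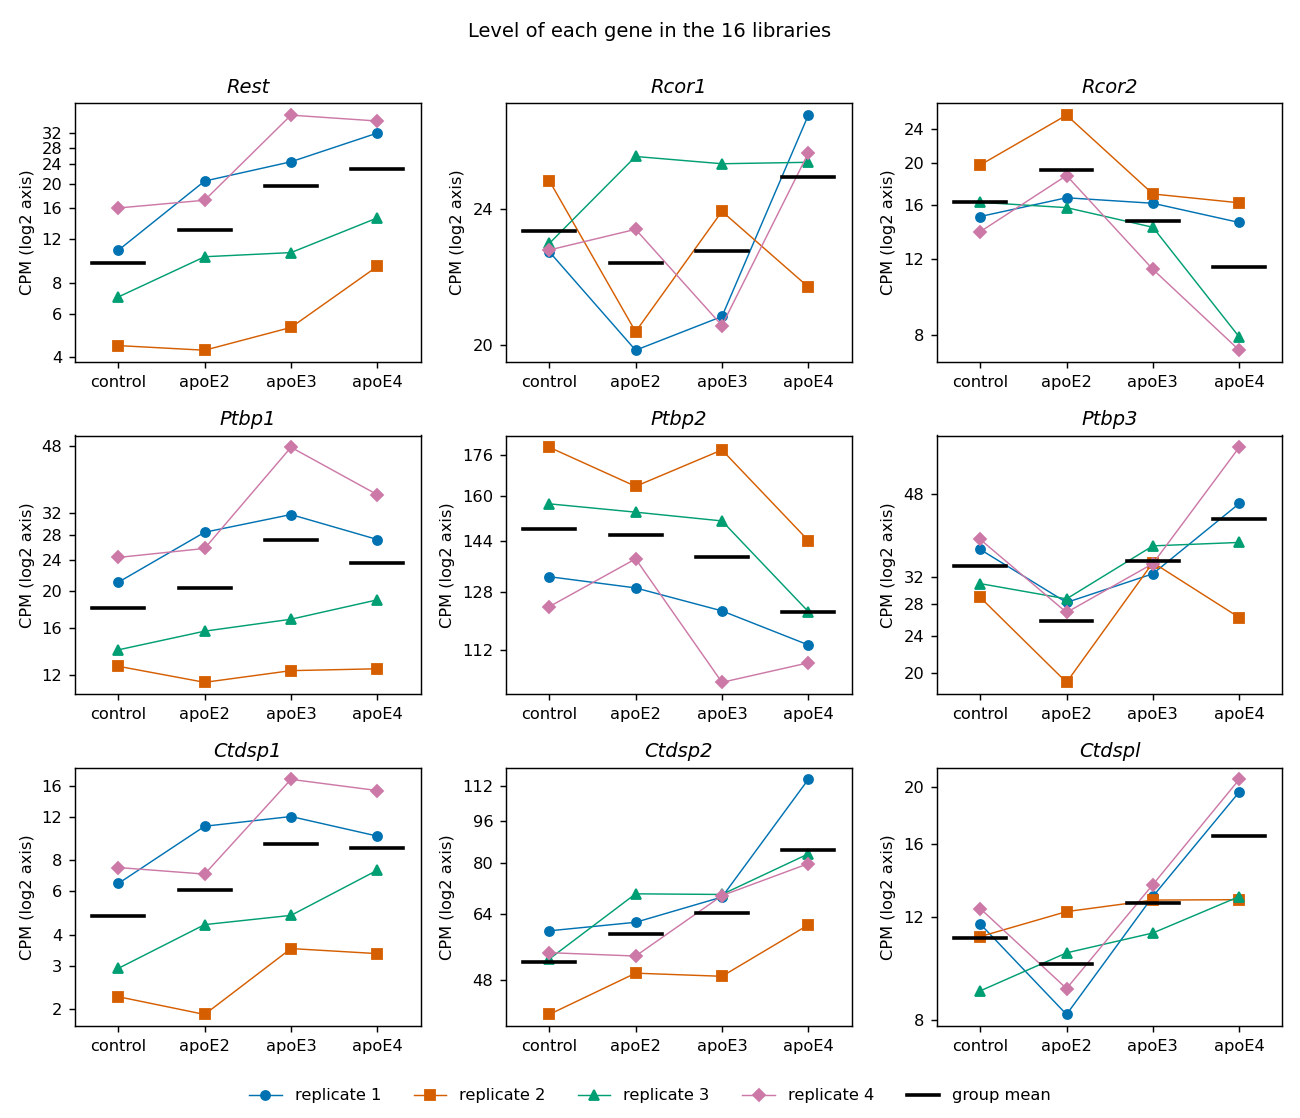
Level of each of the 9 genes (CPM, log2 axis) in the 4 groups, with 1 point per library, lines joining libraries that share a replicate number and black bars for group means (n = 4). Replicate 2 is the lowest of *Rest* in each group (4.28 to 9.31 CPM) and replicate 4 or 1 the highest, while *Ctdsp2* and *Ctdspl* have their highest library of every replicate number in the apoE4 group.

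*Rest* was the member with the largest estimate against the control neurons with apoE4, and within every replicate number it was above its control library. Its level in the control replicates 1 to 4 was 10.8, 4.46, 7.01 and 16.01 CPM, and with apoE2 it was 20.6, 4.28, 10.2 and 17.2 CPM. With apoE3 it was 24.6, 5.28, 10.6 and 37.9 CPM, and with apoE4 32.1, 9.31, 14.6 and 35.9 CPM. The groups overlapped, since replicate 2 of each group was far below replicates 1 and 4, but within a replicate number the apoE4 library held 2.97, 2.09, 2.08 and 2.24 times the CPM of the control library. These are bulk RNA values, in which more cells of a type and more RNA per cell cannot be told apart. The log2 fold change was 1.26 (SE 0.63) and did not pass edgeR's quasi-likelihood test (adjusted p = 1.00, unadjusted p = 0.0656). Libraries that share a replicate number deviated together in these data, least so for number 1. With the number as a block in the fit *Rest* was called higher, at 1.22 (SE 0.17, edgeR adjusted p = 9.32e-04). That call remained in each of 16 blocked fits without 1 library, at log2 fold changes of 1.09 to 1.34. The study lists *Rest* among its apoE4 genes from these same libraries, so this direction is not independent evidence.

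With apoE3 the *Rest* libraries held 2.27, 1.18, 1.51 and 2.37 times the CPM of their controls, a log2 fold change of 1.03 (SE 0.63, edgeR adjusted p = 0.806), or 0.86 with the block (edgeR adjusted p = 0.00628, called in 16 of 16 blocked fits without 1 library). Without the block the estimate was 0.485 when apoE3 replicate 4 was left out. With apoE2 the ratios were 1.90, 0.958, 1.45 and 1.07, and neither fit called the difference (0.45, edgeR adjusted p = 1.00, and 0.40 with the block, adjusted p = 0.334). In 3 of the 4 replicate numbers the apoE4 library had the highest *Rest* level. Tested directly, apoE4 against apoE3 gave 0.23 with a 95% interval of −1.10 to 1.57, and edgeR called it in neither fit (adjusted p = 1.00, and 0.304 with the block), which does not show that the 2 isoforms act alike. ApoE4 against apoE2 gave 0.82 (edgeR adjusted p = 1.00), and 0.83 with the block (edgeR adjusted p = 0.0111).

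The 2 corepressors differed from each other in their values. *Rcor1*, the scaffold that joins REST to the demethylase KDM1A and to deacetylases, was the most even member, with 19.9 to 27.2 CPM over all 16 libraries. Its largest estimate against the control neurons was 0.10 with apoE4 (95% interval −0.13 to 0.34), and over the 16 libraries its correlation with *Rest* was 0.02 (Pearson, log2 CPM). *Rcor2*, a related scaffold found in progenitors and neurons, had lower values with apoE4. It was at 15.03, 19.8, 16.2 and 13.9 CPM in the control, at 16.6, 25.8, 15.8 and 18.7 with apoE2 and at 16.1, 17.0, 14.2 and 11.3 with apoE3. With apoE4 it was at 14.6, 16.2, 7.91 and 7.37 CPM, the lowest library of each of the 4 replicate numbers, with replicates 3 and 4 well below the rest. The log2 fold change from control to apoE4 was −0.50 (SE 0.25) and was not called by edgeR (adjusted p = 1.00, and 0.0842 with the block). With DESeq2 and the block it was −0.552 and was called (DESeq2 adjusted p = 0.0444). Against apoE2 it was −0.74 (edgeR adjusted p = 0.525), and *Rcor2* was called lower with the block (−0.78, edgeR adjusted p = 0.0102), though not in the blocked fit without apoE4 replicate 3 (adjusted p = 0.0553).

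Among the PTB proteins, *Ptbp1* and *Ptbp2* ran in opposite directions over the libraries. *Ptbp1*, the form of progenitors and glia, was at 21.0, 12.7, 13.98 and 24.4 CPM in control replicates 1 to 4 and at 28.4, 11.5, 15.7 and 25.8 CPM with apoE2. It was at 31.7, 12.3, 16.8 and 47.5 CPM with apoE3 and at 27.2, 12.5, 18.9 and 35.7 CPM with apoE4. Replicate 2 was again the lowest library of every group, at nearly the same level in all 4. The log2 fold changes were 0.17, 0.59 and 0.39 with apoE2, apoE3 and apoE4 (SE 0.43 each), none called by edgeR (adjusted p = 1.00, 0.809 and 1.00). Without replicate 4 of the isoform the estimates were 0.163 with apoE3 and 0.109 with apoE4. With the block the apoE3 difference was called (0.46, edgeR adjusted p = 0.0432), but 10 of 16 blocked fits without 1 library lost it.

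*Ptbp2*, the neuronal form, was at 132.7, 179.1, 157.1 and 123.8 CPM in the control, at 129.3, 163.6, 154.1 and 138.3 with apoE2 and at 122.6, 178.0, 151.0 and 103.9 with apoE3. With apoE4 it was at 113.3, 144.3, 122.4 and 108.7 CPM, below the control library of the same number in 4 of 4 pairs. Replicate 2, low in *Rest* and *Ptbp1*, was here the highest of each group. The apoE4 difference was −0.28 (SE 0.16) and was not called by edgeR (adjusted p = 1.00, and 0.0688 with the block). With DESeq2 and the block it was −0.281 and was called (DESeq2 adjusted p = 0.0284).

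Expressed as a ratio, 12.9 ± 5.92 *Ptbp1* reads were counted per 100 *Ptbp2* reads in the control neurons (SD, n = 4), against 14.5 ± 7.03 with apoE2, 22.4 ± 17.5 with apoE3 and 20.2 ± 10.5 with apoE4. The apoE3 mean was 14.6 without replicate 4. The groups overlapped widely, from 7.07 to 19.7 in the control and from 8.64 to 32.8 with apoE4. Replicate 2 stayed between 6.93 and 8.64 in all 4 groups, whereas replicate 4 ran from 18.7 to 45.7.

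**Figure D2:**
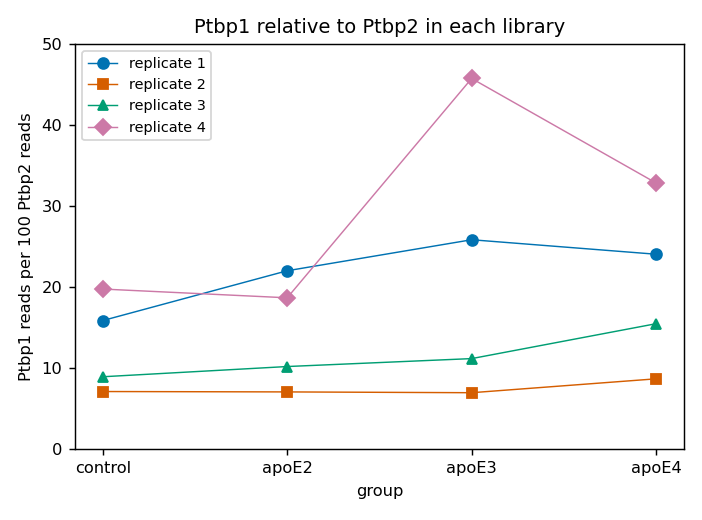
*Ptbp1* reads per 100 *Ptbp2* reads (linear axis from 0) in each library by group, with lines joining libraries that share a replicate number. Replicate 2 lies between 6.93 and 8.64 in every group, and the highest point, 45.7, is apoE3 replicate 4.

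*Ptbp3*, the paralog best known from blood cells, showed another order of groups. It was at 36.6, 29.0, 31.0 and 38.5 CPM in the control and at 28.2, 19.1, 28.7 and 26.9 CPM with apoE2, the lowest library of each replicate number. With apoE3 it was at 32.5, 34.3, 37.3 and 34.2 CPM, and with apoE4 at 45.8, 26.2, 37.9 and 60.4 CPM, where replicate 2 stayed below its control. The apoE2 libraries lay below every control library, and 1.05% of all tested genes were separated from the control in this direction. Neither fit called that difference (−0.39, SE 0.20, edgeR adjusted p = 1.00, and 0.220 with the block). Between apoE4 and apoE2 the log2 fold change was 0.73 (SE 0.20, edgeR adjusted p = 0.295), and *Ptbp3* was called higher with apoE4 in the blocked fit (0.70, edgeR adjusted p = 0.0129). This call was lost without apoE2 replicate 2, apoE2 replicate 4 or apoE4 replicate 4, where the largest adjusted p was 0.0573.

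The 3 phosphatase genes were each higher in the apoE4 library than in the control library in 4 of 4 pairs. *Ctdsp1*, the least abundant of them, was at 6.45, 2.25, 2.93 and 7.48 CPM in the control and at 10.98, 1.91, 4.40 and 7.04 CPM with apoE2. It was at 12.02, 3.52, 4.80 and 17.0 CPM with apoE3 and at 10.0, 3.36, 7.30 and 15.3 CPM with apoE4. As with *Rest*, replicates 1 and 4 were high and replicate 2 low, and the groups overlapped. The apoE3 and apoE4 libraries held 1.56 to 2.27 and 1.49 to 2.49 times their controls. The log2 fold changes were 0.96 and 0.91 (SE 0.62 each, edgeR adjusted p = 0.806 and 1.00), and with the block 0.89 and 0.91 (edgeR adjusted p = 0.0122 and 0.0221), called higher in 14 and 11 of 16 blocked fits without 1 library. Without the block the estimates were 0.496 and 0.523 when replicate 4 of the isoform was left out. The apoE3 call was lost without control replicate 1 or apoE3 replicate 4, and the apoE4 call without control replicates 1, 3 or 4 or apoE4 replicates 3 or 4. Between apoE4 and apoE3, *Ctdsp1* gave −0.05 with a 95% interval of −1.36 to 1.27.

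*Ctdsp2* was the most abundant of the 3. Its control libraries had 59.4, 41.2, 52.5 and 54.0 CPM, the apoE2 libraries 61.7, 49.4, 69.8 and 53.2 CPM and the apoE3 libraries 68.9, 48.7, 69.6 and 69.3 CPM. With apoE4 they had 115.2, 61.0, 83.2 and 79.7 CPM, all above the highest control library, and the apoE4 library was the highest of each replicate number. The log2 fold change against the control was 0.71 (SE 0.19), which had an unadjusted p of 0.00174 and did not pass adjustment in edgeR's test (adjusted p = 0.311). With the block it was 0.69 (SE 0.10, edgeR adjusted p = 9.65e-04), called in 16 of 16 blocked fits without 1 library. Against apoE2 it was 0.53 (edgeR adjusted p = 0.552), and 0.51 with the block (edgeR adjusted p = 0.00784), called again in 16 of 16. Against apoE3 it was 0.40 (95% interval 0.01 to 0.80, edgeR adjusted p = 1.00, and 0.0648 with the block). With DESeq2 and the block it was 0.39 and was called (DESeq2 adjusted p = 0.0252). Blocked edgeR fits without 1 library called it in 1 of 16.

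*Ctdspl*, like *Ctdsp2*, had its highest mean with apoE4, and its lowest was with apoE2. It was at 11.7, 11.1, 8.96 and 12.4 CPM in the control, at 8.17, 12.3, 10.4 and 9.04 with apoE2 and at 13.0, 12.8, 11.3 and 13.6 with apoE3. With apoE4 it was at 19.6, 12.8, 13.0 and 20.6 CPM, above every control and every apoE2 library, with replicates 1 and 4 higher than replicates 2 and 3. Against the control the log2 fold change was 0.58 (SE 0.18, unadjusted p = 0.00616, edgeR adjusted p = 0.645, and 0.0666 with the block). With DESeq2 and the block it was 0.564 and was called (DESeq2 adjusted p = 0.0419). Against apoE2 it was 0.73 (SE 0.18, edgeR adjusted p = 0.171), and with the block *Ctdspl* was called higher (0.69, edgeR adjusted p = 0.0219), except in the blocked fits without replicate 1 or 4 of apoE2 or of apoE4. DESeq2 without a block called this difference alone among the 54 differences of the members (adjusted p = 0.0226), where it called 0.428% of all genes.

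**Figure D3:**
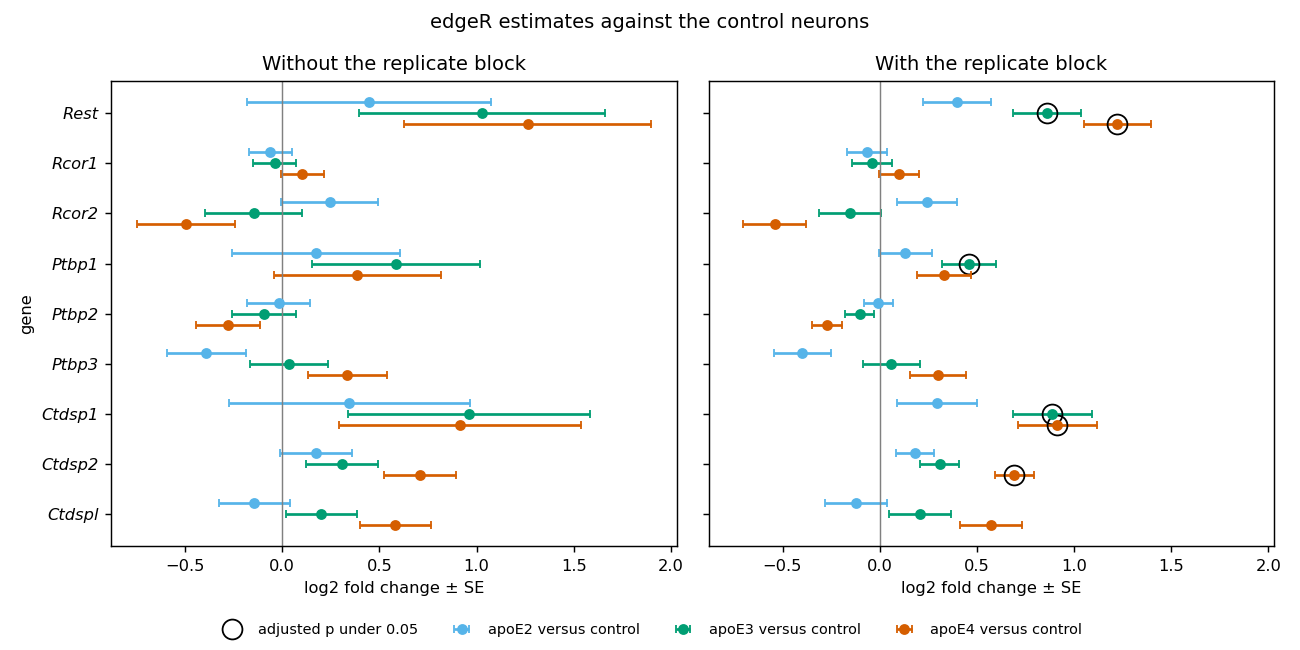
Log2 fold change (points) and SE (bars) of the 9 genes against the control neurons for the 3 isoforms, from edgeR without (left) and with (right) the replicate number as a block. Black rings mark an edgeR adjusted p under 0.05, of which there are 0 on the left and 6 on the right, from *Rest* (1.22 with apoE4, 0.86 with apoE3), *Ctdsp1* (0.91, 0.89), *Ctdsp2* (0.69 with apoE4) and *Ptbp1* (0.46 with apoE3).

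Against the control neurons, edgeR without the block called 0 of the 9 members with any isoform. Of all tested genes it called 0% for apoE2, 0.00587% for apoE3 and 0.194% for apoE4. An unadjusted p under 0.05 was reached by 0, 0 and 2 members (2.79, 6.43 and 3.30% of all genes). The study asked for at least a 2-fold difference at that unadjusted p, which 0 members met (0.722, 1.96 and 1.15% of all genes). *Rest* met it with apoE4 once the block was added, for which the share of all genes is not given here. With the block edgeR called 0, 3 and 3 members, all higher, against 1.17, 7.95 and 3.18% of all tested genes called higher. Of all genes it called 1.73, 11.7 and 3.30% in either direction, which moved to 0.334, 4.29 and 1.29% without control replicate 1 and to 4.97, 15.9 and 5.82% without apoE2 replicate 4. Between isoforms, edgeR without the block called 0 members, and 0.252% of all genes for apoE4 against apoE2, 0.147% for apoE4 against apoE3 and 0% for apoE3 against apoE2. Without 1 library these were 10 to 89 genes (lowest without apoE2 replicate 4), 0 to 36 (0 without apoE3 replicate 1 or 2) and 0, the highest counts coming without apoE4 replicate 2, and apoE4 against the control gave 15 (without control replicate 1) to 63. With the block it called 5 members for apoE4 against apoE2 (4.44% of all genes), of which *Rest*, *Ptbp3*, *Ctdsp2* and *Ctdspl* were higher and *Rcor2* lower. It called 0 members for apoE4 against apoE3 and for apoE3 against apoE2 (1.77 and 1.31% of all genes, or 0.577 and 0.322% without apoE3 replicate 1). At an unadjusted p under 0.05 without the block, there were 4 members for apoE4 against apoE2, 1 for apoE4 against apoE3 and 0 for apoE3 against apoE2 (5.34, 4.70 and 2.28% of all genes). *Ctdsp2* and *Ctdspl* were the 2 members whose apoE4 libraries lay above all control libraries, which held for 1.34% of all genes, and *Ctdspl* that whose apoE4 libraries lay above all apoE2 libraries (1.90% of all genes). *Ptbp3* alone separated apoE3 from apoE2 (0.698% of all genes, higher). The median log2 fold change of the 9 members was 0.17, 0.20 and 0.39 with apoE2, apoE3 and apoE4, against 0.01, 0.02 and 0.00 over all tested genes. The 3 comparisons share the control libraries. Earlier results were known when the members were chosen, so these counts and medians are a description.

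The members differed in how much of their variation lay between replicate numbers and how much between groups. Of the variance of log2 CPM over 16 libraries, 84.6% lay between replicate numbers for *Ptbp1*, 76.7% for *Ctdsp1*, 74.3% for *Rest* and 67.8% for *Ptbp2*. Between the 4 groups lay 8.13, 16.9, 21.2 and 21.8% of it for the same 4 genes. For *Ctdspl* these shares were 10.1% between numbers and 59.5% between groups, and for *Ctdsp2* 37.2 and 52.6%. *Ptbp3* (29.1 and 45.8%) and *Rcor2* (35.6 and 44.8%) had under 50% in either, and for *Rcor1* the shares were 18.2 and 21.95%, with 59.9% in neither.

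**Figure D4:**
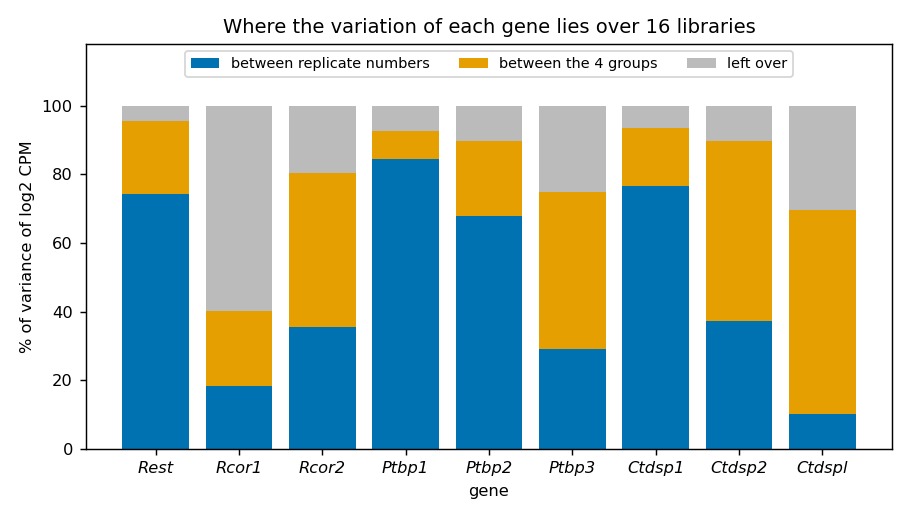
Share of the variance of log2 CPM over 16 libraries (%, stacked to 100) that lies between replicate numbers, between the 4 groups and in what is left over, for each of the 9 genes. *Ptbp1*, *Ctdsp1*, *Rest* and *Ptbp2* have 67.8 to 84.6% between replicate numbers, and *Ctdspl* 59.5% between groups.

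Correlations over the 16 libraries, which share groups and replicate numbers, are given as a description. *Rest* correlated at 0.97 with *Ctdsp1*, at 0.95 with *Ptbp1*, at −0.95 with *Ptbp2*, at 0.73 with *Ctdsp2* and at 0.44 with *Ctdspl* (Pearson, log2 CPM), and *Ctdsp2* at 0.61 with *Ctdspl*. After the mean of each replicate number was taken off, the values for *Rest* were 0.87, 0.80, −0.83, 0.85 and 0.62 in the same order, and *Ctdsp2* correlated at 0.84 with *Ctdspl*. The genes most like *Rest* among 14161 genes with a mean of at least 1 CPM were *Wasf2* (0.990), *Itpripl2* (0.986), *Prkd3* (0.983), *Sft2d2* (0.982) and *Sema3b* (0.982). The first 4 of them were still among the 5 most like genes after replicate-number means were taken off, with *Limd1* as the other. For *Ptbp1* they were *Nfkb2*, *Mmp14*, *Fkbp9*, *Lima1* and *Trip6*, at 0.986 to 0.988, and 2 of them (*Mmp14* and *Lima1*) were still among the 5 most like genes when the number means were taken off.

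Markers of other cell types differed between the same libraries. The neuron markers were abundant, at 4119 to 9462 CPM summed over 14 genes, and those of astrocytes were at 1314 to 6624 CPM over 9 genes, so that transcripts of both cell types were present. By replicate number the mean astrocyte sum was 3318, 1502, 3088 and 4555 CPM for numbers 1 to 4, beside 22.01, 5.83, 10.6 and 26.7 CPM of *Rest*. Against the control library of the same number, the astrocyte sum was 1.65, 1.11, 1.46 and 1.69 times as high with apoE4, 2.07, 1.20, 1.34 and 2.08 times with apoE3 and 1.48, 0.928, 1.17 and 0.946 times with apoE2. The *Rest* ratio exceeded the astrocyte ratio in 4 of 4 pairs with apoE4, in 3 of 4 with apoE3 and in 4 of 4 with apoE2. All 9 astrocyte markers were higher with apoE4 in edgeR's estimates, with 0 called without the block and 4 with it, and 8 of 9 were higher with apoE3, with 0 and 8 called. Of all genes the blocked fit called 3.18% higher with apoE4 and 7.95% with apoE3. *Gfap*, the filament protein of astrocytes, was at 189 to 1287 CPM in the control and 300.0 to 2489 CPM with apoE4 (log2 fold change 1.03, edgeR adjusted p = 1.00, and 0.00779 with the block). Cells stained for GFAP, which the study also counted in such cultures, are not analysed here.

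In the other lists the summed CPM ranged, over control and apoE4 libraries, from 123 to 505 and from 125 to 768 for the oligodendrocyte lineage (9 genes), from 202 to 1315 and from 284 to 2851 for dividing cells and progenitors (8 genes), from 25.5 to 163 and from 26.6 to 267 for vascular cells and fibroblasts (10 genes) and from 7.91 to 39.2 and from 10.1 to 42.2 for microglia (8 genes). With apoE3 these sums ranged up to 925, 3659, 308 and 51.5 CPM, and with apoE2 up to 883, 1412, 152 and 28.5 CPM. In edgeR's estimates 8 of 9, 8 of 8, 8 of 9 tested and 6 of 8 markers of these lists were higher with apoE4. With apoE3 9, 8, 8 and 5 were higher. EdgeR called 0 of them without the block. With it, 1, 2, 1 and 0 were called higher with apoE4 and 4, 4, 1 and 0 with apoE3 (3.18 and 7.95% of all genes). The *Rest* ratio exceeded that of the dividing-cell sum in 1 of 4 pairs with apoE2, in 0 of 4 with apoE3 and in 4 of 4 with apoE4. In the same order it exceeded that of the oligodendrocyte sum in 2, 3 and 4 pairs. For the microglia sum and for the vascular sum these were 3, 4 and 4 pairs. *Tmem119* of microglia and *Cldn5* of vessels were at 0 in some library, and no listed marker was at 0 in all. The part of these cells in the levels of *Rest*, *Ctdsp1* and *Ptbp1* was not tested.

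**Figure D5:**
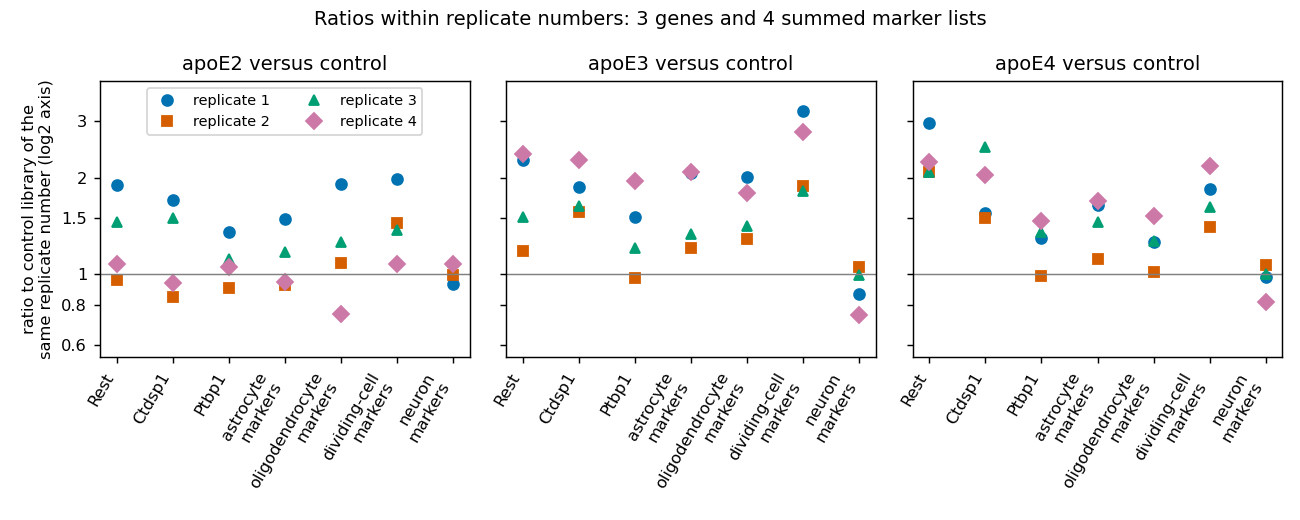
Ratio of each apoE library to the control library of the same replicate number (log2 axis, 1 point per pair) for *Rest*, *Ctdsp1* and *Ptbp1* and for the summed CPM of astrocyte, oligodendrocyte lineage, dividing-cell and neuron markers. The *Rest*, astrocyte and dividing-cell ratios are 2.08 to 2.97, 1.11 to 1.69 and 1.40 to 2.17 with apoE4, and 1.18 to 2.37, 1.20 to 2.08 and 1.82 to 3.22 with apoE3. The *Rest* range overlaps that of dividing cells with both and that of astrocytes with apoE3.

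Other genes of the circuit are given by 7 lists, in which edgeR without the block called 0 genes in the 3 comparisons with the control neurons. Of 14 corepressor partners of REST, 4, 3 and 7 were higher with apoE2, apoE3 and apoE4, with medians of −0.03, −0.08 and −0.02, and 0, 0 and 1 had an unadjusted p under 0.05 (2.79, 6.43 and 3.30% of all genes). With the block edgeR called 0, 0 and 1 of them. All 7 genes for the turnover of REST protein found in the files were lower with apoE4, with a median of −0.08, 0 called in either fit and 0 at an unadjusted p under 0.05, where apoE3 gave 1. Among them *Cul1*, a scaffold of the ubiquitin ligase, gave −0.10, and *Skp1a*, its adaptor, gave −0.04 with apoE4 and 0.25 with apoE3.

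Of 21 genes known as REST targets, 11, 16 and 14 were lower with apoE2, apoE3 and apoE4, with median log2 fold changes of 0.00, −0.15 and −0.05 against 0.01, 0.02 and 0.00 over all genes. At an unadjusted p under 0.05 there were 0, 1 and 1 of them, and with the block edgeR called 0, 4 and 1, the 4 being 3 lower and 1 higher, where it called 1.73, 11.7 and 3.30% of all genes in either direction. Of these 21, 4 are also in the neuron marker list, of whose 14 genes 8, 11 and 9 were lower, with medians of −0.06, −0.18 and −0.03. The summed neuron markers were at 0.746 to 1.05 times their control library with apoE3 and at 0.821 to 1.07 times with apoE4. *Calb1*, a calcium buffer of hippocampal neurons, was at 76.8 CPM with apoE4 and 134.6 CPM in the control, lower in 4 of 4 pairs (−0.81, SE 0.32, edgeR adjusted p = 1.00, and 0.0278 with the block), and it was called lower with apoE3 in the blocked fit too (−0.64, edgeR adjusted p = 0.0403). *Celsr3*, a cadherin of axon guidance, gave −0.33 with apoE3 (edgeR adjusted p = 0.767) and −0.05 with apoE4.

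Of 24 PTB cofactors and neuronal splicing regulators, 19, 21 and 16 were lower with apoE2, apoE3 and apoE4, with medians of −0.03, −0.10 and −0.10. An unadjusted p under 0.05 was reached by 1 with each isoform, and with the block edgeR called 0, 1 and 0 of them, where 11.7% of all genes were called with apoE3. *Srrm4*, which drives neuronal microexons, was at 17.8 CPM with apoE2 and 11.4 CPM in the control (0.64, SE 0.25, edgeR adjusted p = 1.00, and 0.0966 with the block). *Rbfox2*, a splicing factor of neurons and other cells, gave 0.35 with apoE4 (edgeR adjusted p = 1.00, and 0.0599 with the block).

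Of 7 other CTD phosphatase genes, 3 were higher and 4 lower with apoE4, with a median of −0.01, neither fit called one against the control, and 1, 1 and 0 had an unadjusted p under 0.05 with apoE2, apoE3 and apoE4. *Ctdnep1*, a phosphatase of the nuclear envelope, gave 0.24 with apoE4 (edgeR adjusted p = 1.00), and *Rpap2*, which acts on the tail of RNA polymerase II, gave −0.13. Of 11 genes of the BAF chromatin complex, whose subunits are exchanged as neurons mature, 8, 7 and 7 were lower with apoE2, apoE3 and apoE4, with medians of −0.04, −0.11 and −0.04. An unadjusted p under 0.05 was reached by 2 with each isoform (2.79, 6.43 and 3.30% of all genes), and with the block edgeR called 1, 2 and 0 (1.73, 11.7 and 3.30% of all genes). *Dpf3* fell with apoE3 in the blocked fit from 17.7 to 9.48 CPM (−0.92, edgeR adjusted p = 5.59e-04, and −0.90 with adjusted p = 0.541 without the block). *Dpf1*, a neuronal subunit, was lower in 4 of 4 pairs with each isoform (−0.30, −0.37 and −0.30, edgeR adjusted p = 1.00, 0.629 and 1.00), and the apoE3 difference alone was called with the block (edgeR adjusted p = 0.0110).

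Of 7 microRNA genes and host transcripts, 4 had enough reads for a test, and 0 of these had an unadjusted p under 0.05. *Mir124a-1hg*, a host of miR-124, was at 35.0 CPM in the control and at 26.3, 19.4 and 23.9 CPM with apoE2, apoE3 and apoE4. The apoE3 difference was called in the blocked fit (−0.94, edgeR adjusted p = 0.00368, and 0.801 without the block). *C130071C03Rik*, a host of miR-9, gave 0.02, −0.13 and −0.15, and neither fit called it. The *Mir26a-1*, *Mir26a-2* and *Mir26b* genes within the 3 phosphatase genes had too few reads for a test, and no level of a mature microRNA is read from these counts.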

How the data were processed

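The authors aligned the reads to mm10 (STAR 2.5.0c), tallied them by gene symbol (HTSeq 0.6.0) and deposited raw counts for 48397 symbols per library. The annotation and strand setting of the counting are not given in the sources used here. Reads on no single gene, 38.4 to 73.7% of a library, entered neither library sizes nor tests. Depth was 14087723 to 34248172 counts per library.

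Groups and replicate numbers came from the labels. All 16 libraries were fitted together by group in edgeR 4.0.16 (R 4.3.3; TMM; filterByExpr with a minimum count of 10), with quasi-likelihood tests and Benjamini-Hochberg adjustment over 17038 genes in each of 6 comparisons. The study describes its replicates as independent neuronal cultures. No source states that they came from separate litters, so p-values measure the spread between these libraries. The alternatives were DESeq2 1.42.0, its size factors in the edgeR fit, no low-count filter, only the 2 groups compared, each library left out and the replicate number as a block. Leaving out libraries under the block was added after values had been seen.

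Whether the numbers pair libraries was read from the data. Deviations from group means correlated at 0.362 to 0.831 between libraries of the same number, every pair above 0.1, and at −0.736 to 0.569 between different numbers. For number 1 they correlated at 0.362 to 0.552, below the highest value between different numbers, so its pairing is the least sure. Members and lists were written by hand with earlier results of these data known, and 2 genes per list were named by smallest p over the comparisons with the control. The genes so named for the corepressor partners are not reported here. Gene models and 3′UTRs are from GENCODE M21 and microRNAs from RefSeq. The mature miR-124 sequence was not used here.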

Additional observations from a re-analysis of the deposited data

Results flagged for a closer look

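Each member was examined in each group for a library far from the other 3, with Dixon's test at its 95% critical value, and 2 of 36 cases passed it, where chance passes about 5%. *Rcor1* was at 24.9 CPM in control replicate 2, against 22.7 to 22.9 CPM in the other 3 control libraries. *Ctdsp2* was at 48.7 CPM in apoE3 replicate 2, against 68.9 to 69.6 CPM in the other apoE3 libraries, and replicate 2 was also the lowest *Ctdsp2* library of the control, apoE2 and apoE4 groups.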

How the results depend on the processing

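Of 324 values from 6 settings that kept all libraries (54 differences of the members under each), 293 kept their direction and call, 29 were called under the alternative alone and 2 changed direction. The 2 were *Ctdsp1* between apoE4 and apoE3, at −0.05 in the reported fit, 0.025 with the replicate block and 0.032 with DESeq2 and the block. Members called numbered 3 with apoE3, 3 with apoE4 and 5 for apoE4 against apoE2 with the replicate block, and 3, 6 and 7 with DESeq2 and the block, which also called 1 for apoE4 against apoE3 and, of all genes, 7.67, 2.70, 3.46 and 1.98% in these 4 comparisons. DESeq2 alone called 1 for apoE4 against apoE2. Where the numbers pair the libraries, the block changed no other call. The study's criterion, at least 2-fold at an unadjusted p under 0.05, was met by 0 members in the reported fit. With apoE4 it was met by 1, *Rest*, with no low-count filter, with DESeq2, with the block, with DESeq2 and the block and with only the 2 groups compared. The share of all genes that met it in these settings is not given here, so the count has no background beside it. Divided by exon length, the log2 ratio of *Ptbp1* to *Ptbp2* was −2.13 in the control, −1.98 with apoE2, −1.57 with apoE3 and −1.52 with apoE4, against −3.08, −2.94, −2.53 and −2.47 for reads. In both of these log2 means apoE4 lay above apoE3, the reverse of the linear means per 100 reads. DESeq2 size factors shifted no member by more than 0.0214.

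Without 1 library, with and without the block, members called ranged from 0 to 4 with apoE3 and 0 to 6 with apoE4. They ranged from 0 to 6 for apoE4 against apoE2 and 0 to 1 for apoE4 against apoE3. With the block 4.29 to 15.9, 1.29 to 5.82, 2.07 to 5.50 and 0.577 to 2.59% of all genes were called, in the same order. The criterion was met by 0 to 1 members with apoE3 and 0 to 2 with apoE4. The share of all genes that met it in these fits is not given here. Without the block the single call was *Ptbp3* for apoE4 against apoE2 without apoE4 replicate 2 (0.90, edgeR adjusted p = 0.0342). The direction of 13 uncalled differences changed in at least 1 of these 32 fits, and none of the changed values was called. The estimate of *Rest* ran from −0.084 to 0.77 for apoE4 against apoE3. The estimate of *Rcor1* ran from −0.1 to 0.026 for apoE3 against control and from −0.039 to 0.105 for apoE3 against apoE2. The estimate of *Ptbp1* ran from −0.027 to 0.357 for apoE2 against control, from −0.003 to 0.653 for apoE3 against apoE2, from −0.057 to 0.424 for apoE4 against apoE2 and from −0.461 to 0.215 for apoE4 against apoE3. The estimate of *Ptbp2* ran from −0.094 to 0.085 for apoE2 against control, from −0.237 to 0.025 for apoE3 against control and from −0.218 to 0.05 for apoE3 against apoE2. The estimate of *Ptbp3* ran from −0.089 to 0.155 for apoE3 against control. The estimate of *Ctdsp1* ran from −0.094 to 0.647 for apoE2 against control and from −0.425 to 0.41 for apoE4 against apoE3.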
